A study of Arabidopsis thaliana with 4 samples.

Results

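The 10 genes described here mark leaf senescence or the response of leaves to darkness and sugar shortage, and they were followed in Arabidopsis thaliana seedlings of the THO2 mutant tho2-8 and of its background line Col-LUC. They were chosen by locus identifier from among the 37869 loci listed for each library: SAG13 (AT2G29350), SAG12 (AT5G45890), SAG21 (AT4G02380), SEN1 (AT4G35770), ASN1 (AT3G47340), DIN2 (AT3G60140), DIN3 (AT3G06850), DIN10 (AT5G20250), NYE1 (AT4G22920) and NAP (AT1G69490). All 10 were listed, and 9 had enough counts to be tested. Polyadenylated RNA came from whole seedlings at 14 days, grown on soil with 16 h of light and 8 h of dark, with 2 libraries of each genotype. The genotype was read from the library titles, since the genotype field names Col-LUC for all 4. The THO2 protein belongs to the THO complex, which packages new mRNA for export. The nature of the allele, how many plants entered a library and whether replicates were grown apart are given by none of the labels, so p-values reflect only how far these libraries differ, possibly for technical reasons.

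Leaf senescence is the last phase of a leaf's life, in which chlorophyll is degraded and nitrogen is moved out to growing organs. Age, darkness, ethylene, abscisic acid, jasmonate and salicylic acid can all bring it on, and each route uses a partly separate set of genes. The SAG genes were found by their rise in senescing leaves, and the DIN genes by their rise in leaves kept in the dark. In leaves that run out of sugar, the kinase SnRK1 acts through bZIP transcription factors, which bind DNA with an ACGT core, and ASN1 is a standard readout of that route. WRKY factors, many of them tied to defence and senescence, bind the W-box.

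The 300 bases before the annotated start of 4 genes are shown because the expression differences described here turn mostly on these genes. They were read from the RefSeq genome and annotation of build TAIR10.1, as the gene's own strand, with ACGT and the W-box (TTGACC or TTGACT, on either strand) in capitals. The windows are chr2:12600614-12600913 on the plus strand for SAG13, chr3:17441432-17441731 on the minus strand for ASN1, chr3:22216240-22216539 on the plus strand for DIN2 and chr5:6833264-6833563 on the plus strand for DIN10.
SAG13: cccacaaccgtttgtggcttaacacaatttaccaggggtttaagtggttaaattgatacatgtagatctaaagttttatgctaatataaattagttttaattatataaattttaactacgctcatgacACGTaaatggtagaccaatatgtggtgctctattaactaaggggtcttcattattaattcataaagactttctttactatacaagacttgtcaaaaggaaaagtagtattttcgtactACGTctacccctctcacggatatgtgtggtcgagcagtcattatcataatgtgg
ASN1: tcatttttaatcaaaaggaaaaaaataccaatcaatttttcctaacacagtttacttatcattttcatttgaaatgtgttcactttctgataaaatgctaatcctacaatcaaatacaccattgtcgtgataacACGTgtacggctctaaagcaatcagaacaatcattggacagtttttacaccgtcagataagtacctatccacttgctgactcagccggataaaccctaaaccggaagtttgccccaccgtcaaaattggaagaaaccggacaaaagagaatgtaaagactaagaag
DIN2: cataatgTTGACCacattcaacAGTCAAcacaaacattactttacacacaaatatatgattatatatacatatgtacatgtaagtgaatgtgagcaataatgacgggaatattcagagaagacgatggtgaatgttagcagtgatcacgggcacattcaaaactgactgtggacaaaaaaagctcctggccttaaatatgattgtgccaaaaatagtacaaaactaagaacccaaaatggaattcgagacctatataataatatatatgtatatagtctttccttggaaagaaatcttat
DIN10: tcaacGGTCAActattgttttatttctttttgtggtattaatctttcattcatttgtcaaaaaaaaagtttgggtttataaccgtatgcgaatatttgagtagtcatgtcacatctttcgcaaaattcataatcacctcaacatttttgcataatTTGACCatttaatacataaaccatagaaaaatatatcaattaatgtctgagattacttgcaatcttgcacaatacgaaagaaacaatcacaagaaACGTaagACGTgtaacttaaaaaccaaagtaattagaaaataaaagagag
ACGT lay before 6 of the 10 genes (SAG13, SAG12, ASN1, DIN10, NYE1 and NAP), and 49% of 27443 protein-coding genes have it in the same window. The longer G-box CACGTG, which contains ACGT, lay before ASN1 and NAP, against 7.09% of all genes. In ASN1 it began 167 bases before the start. A W-box lay before SAG21, DIN2 and DIN10, against 32.3% of all genes. SEN1, also lower in both tho2-8 libraries but not shown, and DIN3 had neither ACGT nor a W-box in the window. These letter matches are descriptions and not binding sites. Part of the ASN1 window is also annotated as a short gene on the other strand, AT3G47341, which held 0 counts in every library.

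Counts assigned to genes summed to between 17119534 and 17877941 per library. Levels are given as CPM, counts relative to the TMM-scaled library total, and 3 counts correspond to between 0.165 and 0.177 CPM. THO2 itself stood at 82.1 and 84.6 CPM in Col-LUC against 109 and 100.1 CPM in tho2-8, which does not check the labels without knowledge of the allele. Replicates of a genotype differed by a median of 0.25 (Col-LUC) and 0.22 (tho2-8) on the log2 scale over the 20971 tested genes. The 8 leaf markers were detected in every library, and summed to 13228 and 19207 CPM in Col-LUC against 17504 and 14469 CPM in tho2-8. The summed level of 16 root markers was 4055 and 2781 CPM against 2106 and 2553 CPM. PYK10, named here after its values were seen, made up most of this sum, at 3884 and 2658 CPM against 1968 and 2416 CPM. The mean log2 level of the 14 tested root markers, relative to Col-LUC, was -0.36 in tho2-8 replicate 1 and -0.69 in replicate 2. The summed level of 8 floral organ markers was 14.0 and 50.4 CPM against 28.8 and 20.2 CPM. None of these 3 marker lists held a gene at 0 in all libraries. As the RNA came from whole seedlings, fewer cells of a type and less RNA per cell cannot be told apart.

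By edgeR's quasi-likelihood test adjusted over all genes, 0 of the 9 passed, and 2 of the 20971 tested genes (0.00954%) did. At an unadjusted p under 0.05, 2 of the 9 were lower in tho2-8, SAG13 and DIN10, and 0 were higher. Over all tested genes 7.18% were lower and 8.4% higher at that level. Both tho2-8 libraries lay below both Col-LUC libraries for 5 of the 9 (SAG13, SEN1, ASN1, DIN2 and DIN10), against 22.8% of all tested genes, and above them for NYE1, against 25.7%. The median log2 fold change of the 9 genes, tho2-8 over Col-LUC, was -0.51, beside 0.01 for all tested genes. Since the genes were chosen with results of these data known, these counts describe them and do not set them apart from other genes. DESeq2 and limma-voom also called 0 of the 9, with 4 and 2 lower with unadjusted p under 0.05, where 5.53% and 7.28% of all genes were lower. DESeq2 put 4.69% higher at that level. After adjustment DESeq2 called 2.14% of 26186 genes, 1.11% lower and 1.03% higher, and limma-voom 0.00477%. The DESeq2 shares run over every gene with any count, and those of edgeR and limma-voom over the 20971 that passed a count filter.

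**Figure D1:**
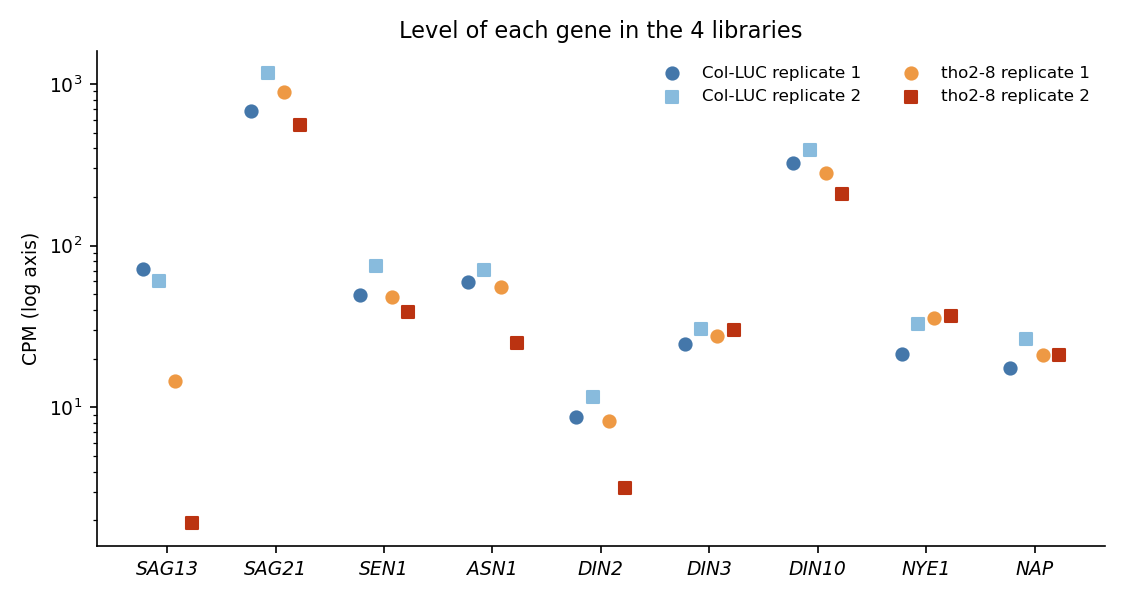
Level of the 9 tested genes in CPM (log axis) in each of the 4 libraries, 1 point per library, circles for replicate 1 and squares for replicate 2. SAG13 had 71.8 and 60.8 CPM in Col-LUC against 14.5 and 1.92 CPM in tho2-8, while the points of NAP and DIN3 overlap between genotypes. SAG12, at 0 counts in all libraries, is not drawn.

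SAG13, a short-chain alcohol dehydrogenase gene that responds early in senescence and in defence, had the largest difference of the 9. It stood at 71.8 and 60.8 CPM in Col-LUC against 14.5 and 1.92 CPM in tho2-8, which is 1253 and 1030 counts against 259 and 35. The genotypes did not overlap, but the tho2-8 libraries also differed from each other, replicate 2 over replicate 1 being -2.84 on the log2 scale (prior count of 2). Its Col-LUC mean was 66.3 ± 7.79 CPM and its tho2-8 mean 8.20 ± 8.88 CPM (SD, n = 2), which is 8.09-fold lower. The log2 fold change was -3.02 ± 0.71 (SE), with a 95% interval from -4.70 to -1.33 and an adjusted p of 0.16 by edgeR. SAG13 passed when either tho2-8 library was left out, at -5.13 without replicate 1 (adjusted p = 7.83e-07) and at -2.19 without replicate 2 (adjusted p = 0.00134). In those fits the spread comes from the Col-LUC pair alone and the lone tho2-8 library is assumed to vary like it, and 1.87% and 0.242% of tested genes were called lower. Without Col-LUC replicate 1 or 2, edgeR called 0 genes (2472 and 2813 at an unadjusted p under 0.05), with SAG13 at -2.89 and -3.13. Over the fits with 1 library left out, its adjusted p ran from 7.83e-07 to 0.399.

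SAG12, a cysteine protease gene that is switched on in yellowing leaves and used as the strict marker of age-driven senescence, held 0 counts in each of the 4 libraries. A count of 0 allows a level of up to 0.165 to 0.177 CPM per library, for counting error alone. A genotype difference in SAG12 was therefore not detectable at this depth. The gene 211 bp downstream of SAG12 on the same strand is APG7, which encodes the autophagy enzyme ATG7, and it stood at 16.1 and 16.2 CPM in Col-LUC against 18.8 and 16.4 CPM in tho2-8.

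SAG21, also called AtLEA5, encodes a small late embryogenesis abundant protein linked to oxidative stress tolerance. It had the highest level of the 10 genes on a scale per kilobase of merged exons, at 705 and 1201 CPM per kb in Col-LUC against 920.5 and 572 CPM per kb in tho2-8. As CPM its values were 683 and 1163 for Col-LUC against 891 and 553 for tho2-8, so that the genotypes overlapped. Its log2 fold change was -0.35 ± 0.35, with a 95% interval from -1.19 to 0.48 and an adjusted p of 0.669 by edgeR. Without Col-LUC replicate 2 it was 0.08, so the direction of SAG21 rested on that library.

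Among the dark-inducible genes, ASN1 (DIN6) encodes the glutamine-dependent asparagine synthetase that stores nitrogen as asparagine when carbon is short. It stood at 59.1 and 71.1 CPM in Col-LUC against 55.8 and 25.1 CPM in tho2-8. The tho2-8 libraries lay below both Col-LUC libraries, replicate 1 just below and replicate 2 far below. The log2 fold change was -0.69 ± 0.34 (SE, n = 2 per genotype), with a 95% interval from -1.50 to 0.12 and an adjusted p of 0.385 by edgeR. DIN2 (BGLU30), which encodes a beta-glucosidase, showed the same order of libraries at a lower level, with 8.66 and 11.6 CPM in Col-LUC against 8.27 and 3.19 CPM in tho2-8. Its log2 fold change was -0.82 ± 0.45, with a 95% interval from -1.89 to 0.24 and an adjusted p of 0.424 by edgeR. Both differences rested on tho2-8 replicate 2. Without that library the log2 fold changes were -0.21 for ASN1 and -0.28 for DIN2, and without tho2-8 replicate 1 they were -1.40 and -1.69. In each of these fits 1 tho2-8 library stood alone, and the spread came from the Col-LUC pair. Whether ASN1 and DIN2 passed depended on which library was left out, so a pass there rests on 1 library.

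DIN10, a gene of the raffinose synthase family (RS6), was the most highly expressed of the dark-inducible genes per kilobase. It stood at 325 and 389 CPM in Col-LUC against 283 and 209.8 CPM in tho2-8, with no overlap. Its log2 fold change was -0.54 ± 0.22, with a 95% interval from -1.06 to -0.01, an unadjusted p of 0.0454 and an adjusted p of 0.312 by edgeR. SEN1 (DIN1), which encodes a chloroplast-located protein, stood at 49.5 and 74.6 CPM in Col-LUC against 48.4 and 38.6 CPM in tho2-8. The gap between the genotypes, from 48.4 to 49.5 CPM, was small beside the spread within Col-LUC. SEN1 had a log2 fold change of -0.51 ± 0.23, with a 95% interval from -1.05 to 0.03 and an adjusted p of 0.341 by edgeR. Leaving out a library moved DIN10 between -0.79 and -0.33, and SEN1 between -0.78 and -0.19, and neither passed in any of those fits.

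DIN3 (BCE2), a subunit gene of the mitochondrial complex that breaks down branched-chain amino acids, differed least from 0 along with NAP. It stood at 24.7 and 30.6 CPM in Col-LUC against 27.7 and 29.9 CPM in tho2-8, and the genotypes overlapped. Its log2 fold change was 0.06 ± 0.18, with a 95% interval from -0.36 to 0.47, and it turned to -0.09 without Col-LUC replicate 1. DIN4, which encodes another subunit of the same complex, stood at 33.2 and 44.5 CPM in Col-LUC against 39.9 and 43.4 CPM in tho2-8, with a log2 fold change of 0.10 ± 0.18. The dark-inducible genes thus did not share 1 pattern across the 4 libraries. ASN1, DIN2, DIN10 and SEN1 were lowest in tho2-8 replicate 2, and DIN3 was lowest in Col-LUC replicate 1.

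NYE1, the STAY-GREEN gene whose protein removes magnesium from chlorophyll as its breakdown starts, was the only 1 of the 9 above Col-LUC in both tho2-8 libraries. It stood at 21.4 and 32.8 CPM in Col-LUC against 35.8 and 36.6 CPM in tho2-8. Its log2 fold change was 0.42 ± 0.22, with a 95% interval from -0.10 to 0.94 and an adjusted p of 0.406 by edgeR. It was 0.14 without Col-LUC replicate 1 and 0.76 without Col-LUC replicate 2 (edgeR, adjusted p = 0.77 and 0.293). NAP (ANAC029), a NAC transcription factor that promotes leaf senescence, stood at 17.5 and 26.3 CPM in Col-LUC against 21.1 and 21.2 CPM in tho2-8. The tho2-8 libraries of NAP lay between the Col-LUC libraries. The log2 fold change of NAP was -0.05 ± 0.23, with a 95% interval from -0.59 to 0.49, and it was 0.28 without Col-LUC replicate 2.

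**Figure D2:**
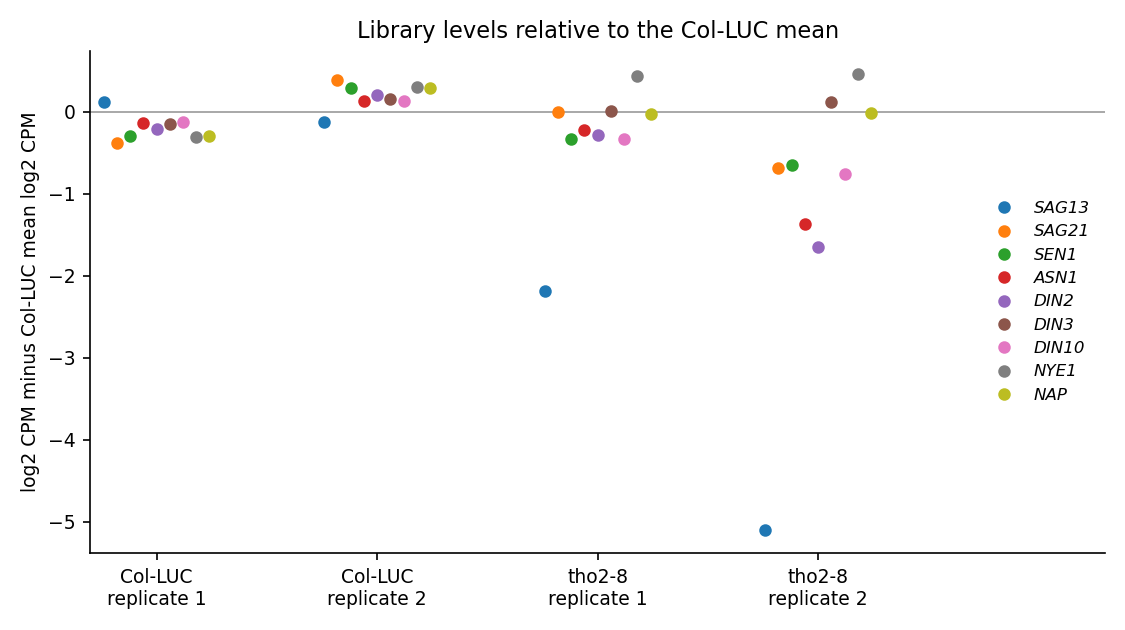
Level of each of the 9 tested genes in each library, as log2 CPM minus the mean log2 CPM of the Col-LUC libraries, 1 point per gene and library. In tho2-8 replicate 2, SAG13, DIN2, ASN1, DIN10, SAG21 and SEN1 lie below all other libraries, while NYE1, DIN3 and NAP do not.

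Per kilobase of merged exons, the order of mean levels in Col-LUC was SAG21 (953 CPM per kb), DIN10 (114), SAG13 (48.5), SEN1 (47.9), ASN1 (23.7), NAP (17.5), NYE1 (15.4), DIN3 (14.1) and DIN2 (4.34), with SAG12 at 0. The library ranges of SAG13 and SEN1 overlapped in Col-LUC, as did those of NAP, NYE1 and DIN3. The order of SAG13 and SEN1 changed between the Col-LUC libraries, as did that of NYE1 and DIN3. NAP lay above NYE1 and DIN3 within each Col-LUC library. These orders were not tested. The range of ASN1, from 21.5 to 25.9 CPM per kb, did not reach that of NAP, from 14.0 to 21.0. In tho2-8 the mean of SAG13 was 6.0 CPM per kb, below those of ASN1, NAP, NYE1 and DIN3. SEN1, at 33.6 CPM per kb, stayed above NYE1 (20.5), NAP (16.9), DIN3 (14.7) and ASN1 (14.7).

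The replicates themselves differed in a pattern that bears on these values. Over all tested genes, the median signed log2 difference (replicate 2 over 1) was 0.0134 in Col-LUC and 0.0036 in tho2-8. In Col-LUC, 8 of the 9 genes were higher in replicate 2 than in replicate 1, and SAG13 was the exception. In tho2-8, 6 of the 9 were lower in replicate 2, and these 6 had their lowest level of all 4 libraries there, as did 25.7% of all tested genes. The median absolute log2 difference between replicates over the 9 genes was 0.42 in Col-LUC and 0.43 in tho2-8, beside 0.25 and 0.22 over all tested genes. SAG13 differed by -2.84 between the tho2-8 replicates (replicate 2 over 1), DIN2 by -1.35 and ASN1 by -1.15, whereas NAP differed by 0.00 and NYE1 by 0.03. The 95th percentile of the absolute difference over all genes was 1.16 in tho2-8, so SAG13 and DIN2 lay beyond it and ASN1 just inside.

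**Figure D3:**
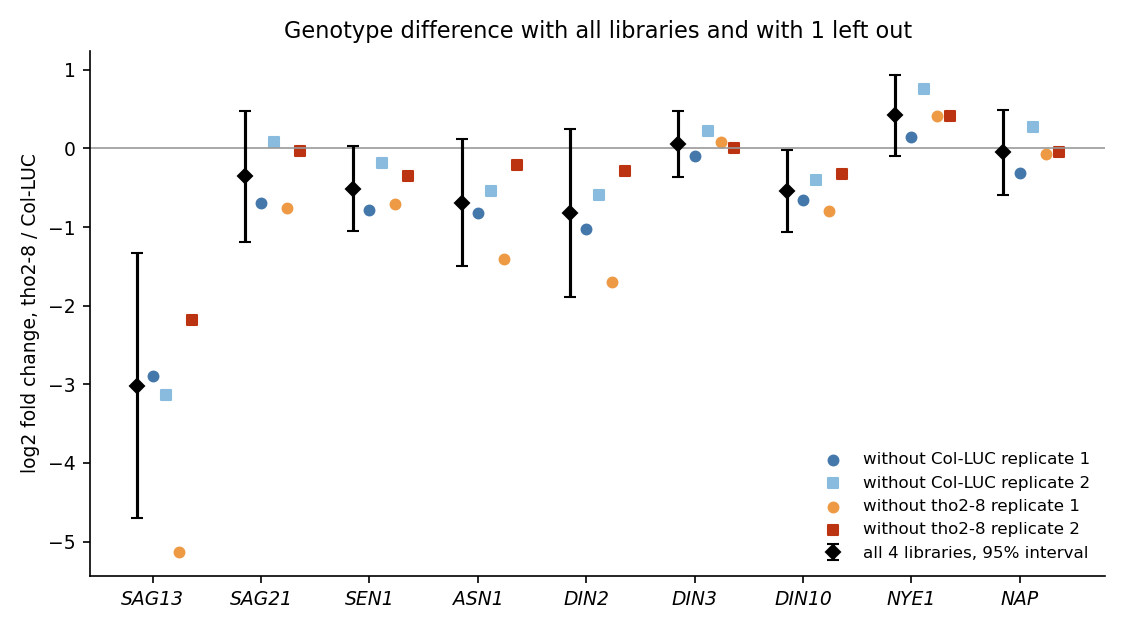
Log2 fold change of tho2-8 over Col-LUC for the 9 tested genes. Black diamonds with bars give the fit on all 4 libraries with its 95% interval, and coloured points give the fits with 1 library left out. SAG13 stays below 0 throughout, between -5.13 and -2.19, while SAG21, DIN3 and NAP have points on both sides of 0.

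The wider senescence programme was read from gene lists by function, described by counts and medians. In each of these lists edgeR called 0 genes over all genes tested. At an unadjusted p under 0.05, 7.18% of all tested genes were lower and 8.4% higher, beside which each list's counts are to be read. Of 18 other senescence-associated genes, 5 were lower and 0 higher (unadjusted p under 0.05), and their median was -0.41 (log2 fold change). The gene with the smallest p was DLO1, a salicylic acid hydroxylase gene, at 13.1 and 11.9 CPM in Col-LUC against 3.63 and 2.20 CPM in tho2-8 (edgeR, adjusted p = 0.105; DESeq2, adjusted p = 5.25e-05). XTH24, a cell wall enzyme gene also known as SEN4, had a log2 fold change of -1.06 ± 0.25 and was called by DESeq2 (adjusted p = 0.00201). SRG1 stood at -0.71 ± 0.20 and the phosphatase gene HAI1 at -0.98 ± 0.32, and neither was called by DESeq2.

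Of 21 transcription factors and other regulators of senescence, 5 were lower and 1 was higher with unadjusted p under 0.05, with a median of -0.32. The list was not split into activators and repressors of senescence, so its counts and median give no direction of senescence. WRKY54 stood at 7.68 and 9.21 CPM in Col-LUC against 3.75 and 2.58 CPM in tho2-8, and was the only 1 of the list that DESeq2 called (adjusted p = 0.0381). MYB2 had a log2 fold change of -2.03 ± 0.55, the NAC gene ORS1 of -0.64 ± 0.20 and WRKY22 of 1.02 ± 0.32. ORE1 and WRKY53, central positive regulators of leaf senescence, stood near 0, at -0.09 ± 0.25 and -0.08 ± 0.33. Both were named here after their values were seen, as were DIN4 above and AT2G29360, LHY and GI below. The regulators thus included genes on both sides of 0, as the 9 genes above did.

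Chlorophyll breakdown enzymes other than NYE1 had a median of -0.39 (log2 fold change, 12 genes), with 1 lower and 0 higher with unadjusted p under 0.05. PES1, which esterifies phytol released from chlorophyll, stood at -0.74 ± 0.25. PPH, the pheophytinase that acts right after NYE1, stood at 67.4 and 95.5 CPM in Col-LUC against 66.8 and 46.8 CPM in tho2-8, and PAO, which opens the ring, at 56.6 and 103 CPM and at 59.9 and 42.2 CPM. PPH had a log2 fold change of -0.52 ± 0.24, PAO of -0.64 ± 0.30 and HCAR of -0.38 ± 0.18, beside 0.42 ± 0.22 for NYE1. Of the 12 genes, 8 were fitted below 0 and 4 above, where 48.5% of all tested genes were fitted below 0. The difference between NYE1 and the 12 genes was not tested.

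Among 21 further genes of darkness and sugar starvation, 20 were tested, with a median of 0.09, and 1 was lower and 3 were higher with unadjusted p under 0.05. EXO, whose mRNA responds to brassinosteroid and carbon status, stood at 63.0 and 55.4 CPM in Col-LUC against 124 and 121 CPM in tho2-8, and was called by DESeq2 (adjusted p = 0.000191) but not by edgeR (adjusted p = 0.0902). BZIP53, which encodes a transcription factor of the low-energy response, stood at 0.51 ± 0.16. The trehalose phosphate synthase family genes TPS8 and TPS10 stood at 0.64 ± 0.20 and -0.47 ± 0.15. Both tho2-8 libraries lay below both Col-LUC libraries for 3 of these genes and above them for 6, near the 22.8% and 25.7% of all tested genes.

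Genes of amino acid breakdown had a median of -0.21 over 23 genes, with 6 lower and 0 higher (unadjusted p under 0.05), and both tho2-8 libraries lay below both Col-LUC libraries for 12 of them. Over all tested genes these shares were 7.18% lower and 22.8% below. GDH2, a glutamate dehydrogenase gene, stood at 429 and 393 CPM in Col-LUC against 296 and 199 CPM in tho2-8 (edgeR, adjusted p = 0.231; DESeq2, adjusted p = 0.047). GDH1 stood at -0.62 ± 0.18, P5CDH of proline breakdown at -0.53 ± 0.16 and CHY1 of valine breakdown at -0.54 ± 0.15. Among 11 other genes of asparagine and glutamine metabolism, 10 had fitted values below 0, against 48.5% of all tested genes. Their median was -0.38, with 1 lower with unadjusted p under 0.05. That gene was ASPGA1, an asparaginase gene, at -0.38 ± 0.15, followed by the glutamate synthase gene GLT1 at -0.63 ± 0.27, GLN1;3 at -0.44 ± 0.19 and GLN1;2 at -0.52 ± 0.28.

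Autophagy genes, which carry out bulk recycling in starved and senescing cells, had a median of -0.04 over 30 genes, with 3 lower and 2 higher with unadjusted p under 0.05. The ubiquitin-like genes ATG8A and ATG8B stood at -0.66 ± 0.14 and -0.66 ± 0.15, and ATG13 and AT3G18770 at 0.68 ± 0.16 and 0.80 ± 0.21. DESeq2 called 0 of the 30. Cysteine protease genes other than SAG12 had a median of -0.20 over 18 tested genes, with 4 lower and 0 higher with unadjusted p under 0.05. Over all tested genes, 7.18% were lower at that level. The lowest p among these proteases was that of XCP1, a protease of xylem cells, at -0.98 ± 0.26, followed by AT4G01610 at -0.68 ± 0.21, AT2G34080 at -1.27 ± 0.48 and BETA-VPE at -0.77 ± 0.30. Of 21 such genes listed, 2 held 0 counts in every library.

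**Figure D4:**
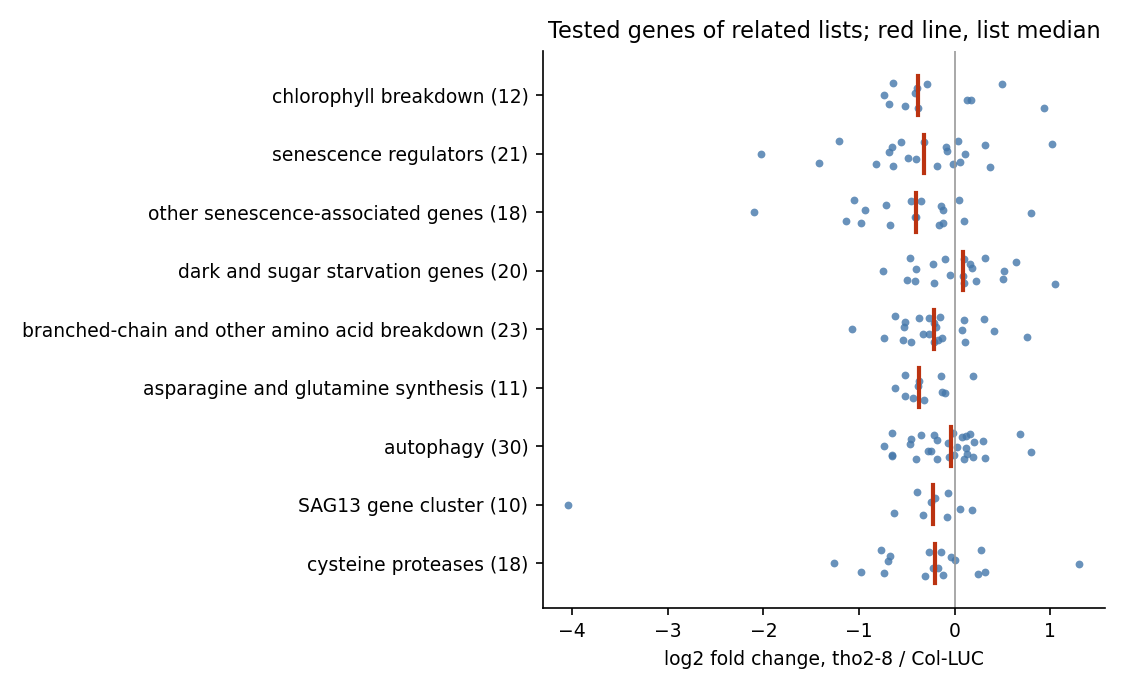
Log2 fold change of tho2-8 over Col-LUC for each tested gene of 9 related lists, with the number of tested genes in parentheses and the list median as a red line. Medians run from -0.41 for other senescence-associated genes to 0.09 for dark and sugar starvation genes, and no gene shown passed edgeR's test over all genes. The point farthest left is AT2G29370, which rests on 1 count in each tho2-8 library.

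SAG13 lies in a run of related short-chain dehydrogenase genes on chromosome 2, itself from 12600914 to 12602556 in TAIR10.1. Of 11 relatives in this run, 10 were tested, 2 were lower with unadjusted p under 0.05, and their median was -0.23. AT2G29340, the relative just before SAG13, had 60.0 and 82.9 CPM in Col-LUC against 54.5 and 37.3 CPM in tho2-8. AT2G29360, the relative after it, stood at 33.8 and 39.6 CPM against 39.2 and 37.1 CPM. AT2G29370 was scarce, with 14 and 21 counts in the Col-LUC libraries and 1 count in each tho2-8 library. SAG13 and its 11 relatives held only whole-number counts, and the rule for reads shared between such copies is not stated. The relatives of DIN10 in the raffinose synthase family had a median of 0.02 over 4 genes, other genes of the beta-glucosidase family of DIN2 had a median of 0.02 over 3 tested genes of 7, and DI21 and LEA3, relatives of SAG21, stood at -0.42 ± 0.23 and 0.08 ± 0.44. BGLU28 was the only gene of these 3 families at an unadjusted p under 0.05, at 1.48 ± 0.53.

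Several of the genes overlap or adjoin others, and whether counting used strand is not stated, so overlapping genes are uncertain. DIN10 overlaps AT5G20260 on the opposite strand by 82 bp, which held at most 4 counts per library, and DIN3 overlaps AT3G06840 by 9 bp, which stood between 2.58 and 3.31 CPM. SEN1 lies 200 bp from LTO1 and 102 bp from STY17, at log2 fold changes of -0.10 ± 0.19 and -0.12 ± 0.17. NYE1 lies 185 bp from PYR4 and 407 bp from FZR2, at -0.17 ± 0.15 and 0.46 ± 0.18. SAG21 overlaps MIR2936 on the same strand by 180 bp, which is not analysed here.

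The genes most like SAG13 over the 4 libraries, by the distance between centred log2 CPM profiles, were AT1G26390, a berberine bridge enzyme-like oxidoreductase gene, BGL2 (PR2), a defence glucanase gene, and AT4G07820, of the CAP superfamily that holds PR1. Their distances were 0.319, 0.58 and 0.826. AT1G26390 stood at 7.57 and 8.09 CPM in Col-LUC against 1.51 and 0.165 CPM in tho2-8. Its value in tho2-8 replicate 2 was 3 counts, at the floor. These 3 genes were picked for their likeness to SAG13 over the same libraries, so their lower levels in tho2-8 follow from that choice. DESeq2 called AT1G26390 (adjusted p = 0.000149), BGL2 (adjusted p = 0.044) and AT4G07820 (adjusted p = 0.000432), and edgeR called none of them (adjusted p = 0.156, 0.127 and 0.142). The genes most like ASN1 were the stomatal lineage regulator gene SPCH, the uncharacterized AT2G18690 and the acyltransferase family gene AT5G39090, at distances of 0.0645, 0.11 and 0.142.

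Values of other gene groups in the same libraries are given beside these results, and their part in the results was not tested. A list of 12 salicylic acid response genes summed to 433 and 469.7 CPM in Col-LUC against 184 and 147 CPM in tho2-8. By edgeR 5 were lower and 0 higher with unadjusted p under 0.05, where 7.18% of all tested genes were lower. DESeq2 called 4 lower, against 1.11% of all genes. The list's mean log2 level relative to Col-LUC was -1.01 in tho2-8 replicate 1 and -2.07 in replicate 2, the same order of libraries as for SAG13. Its median log2 fold change was -0.32. Of the 12 genes, 5 were fitted at -1.67 or lower, among them PR1 with 1 count in tho2-8 replicate 2, and the other 7 between -0.39 and 0.18. Clock genes, which follow the time of day, were LHY at 486 and 639 CPM in Col-LUC against 596 and 544 CPM in tho2-8. GI had too few counts to be tested, 4 and 2 in Col-LUC and 10 and 15 in tho2-8. RVE1, a clock-related gene, stood at 1.10 ± 0.21, PRR5 at 0.78 ± 0.22, LUX at -0.61 ± 0.22 and ELF3 at 0.29 ± 0.18 (edgeR, adjusted p between 0.128 and 0.482). DESeq2 called RVE1 (adjusted p = 0.000272) and none of the other 3. Of the 12 clock genes listed, 9 were tested, with 8 fitted above 0 and 1 below, where 48.5% of all tested genes were below. The median log2 fold change of the 9 clock genes was 0.18. The median log2 fold change was -0.64 for 14 tested root markers, 0.28 for the 8 leaf markers and -0.67 for the 8 floral organ markers.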

How the data were processed

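Messenger RNA of whole 14-day-old seedlings was sequenced with a stranded kit, per the labels' protocols. The deposited tables hold estimated counts per locus, not normalized, and about 2.06% to 2.15% of loci hold fractional values, so they were rounded to whole numbers for the count test that had been planned. Per the submitters' processing notes, the authors used DESeq2 1.24.0, featureCounts 1.6.3, HISAT2 2.1.0 and Trimmomatic on build TAIR10. Their settings for strand and for reads shared by genes are not stated. The 296 organelle loci hold 0 counts in every library.

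With R 4.3.3 and edgeR 4.0.16, genes passing filterByExpr were scaled by TMM and tested over all 20971 genes (glmQLFit, glmQLFTest, genotype only, Benjamini-Hochberg adjusted p under 0.05). Standard errors and 95% intervals come from the F statistic. Alternatives used limma 3.58.1, DESeq2 1.42.0, other scalings and filters, a replicate block and each library left out. On simulated data edgeR, limma-voom and DESeq2 recovered the size of the changes put in. The share of false calls was above the threshold for each, and highest for DESeq2. The simulation used edgeR's estimates of spread, the same in both genotypes, so these shares need not hold for the real libraries. Replicates differed beyond sampling noise (mean chi-square per gene 25.7 in Col-LUC and 23.3 in tho2-8). An exact permutation test of 2 against 2 cannot go below 0.333 and was not used.

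The 10 genes and all lists were chosen with earlier results of these data known. Genes named beyond them were up to 4 with the smallest p per list, the 3 most alike to SAG13 and to ASN1 (mean log2 CPM of at least 1), and neighbours within 500 bp; the report marks the exceptions. Names, positions and sequences are from RefSeq, TAIR10.1; loci without a paired symbol keep their identifier. Floors cover counting error only, and intervals of fold changes come from the spread between libraries.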

Additional observations from a re-analysis of the deposited data

How the results depend on the processing

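No fit with all 4 libraries in which replicate numbers were unused or taken as given called any of the 9 genes. Over all genes edgeR called 2, DESeq2 560, limma-voom 1 and edgeR without a filter on low counts 59. The count was 2 with other scalings, a stricter filter (CPM of at least 5 in 2 libraries) and the replicate block. It ran from 0 to 710 with 1 library left out. Of the 9 genes, 4 had an unadjusted p under 0.05 with DESeq2, against 5.53% of all genes lower and 4.69% higher. With edgeR 2 did, against 7.18% lower and 8.4% higher, and with the replicate block 1 did. The number moved with 1 library left out, as did the number over all genes. The median log2 fold change of the 9 genes ran from -0.76 to -0.19 with 1 library left out. Same-numbered libraries are not known to be paired, and their deviations correlated at -0.12 over genes. Pairing them crosswise, added after the data were seen, gave 537 calls over all genes and 6 of the 9 at an unadjusted p under 0.05, 1 of them called. The share of all genes at that unadjusted level is not given for either pairing. The replicate block changed no call on the 9 genes. DIN3 ran from -0.091 (without Col-LUC replicate 1) to 0.22, SAG21 from -0.76 to 0.082 and NAP from -0.32 to 0.28 (both highest without Col-LUC replicate 2), and the cause of these changes of sign was not tested. The other 6 genes kept their direction in all 12 alternatives. SAG13 ran from -5.13 to -2.19 and its adjusted p from 7.83e-07 to 0.399. Depth limits SAG12, at 0 counts, and no other of the 10 genes to a level under the floor. With 2 libraries per genotype, the spread between libraries limits the rest.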
